A study of Mus musculus with 21 samples.

Results

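Foxo1 and Foxo3, 2 of the FOXO transcription factors, and 7 genes known to act upstream of them or as their growth-restraining targets (Pik3ip1, Irs2, Sesn1, Sesn3, Txnip, Trp53inp1 and Ccng2) were followed in sorted mouse brain endothelial cells. They are 9 of the 24206 gene names in the deposited table, whose unit is RPKM, reads per kilobase of gene and per mapped total. Foxo1, Foxo3, Irs2, Sesn1, Sesn3, Txnip and Ccng2 were taken by name. Pik3ip1 and Trp53inp1 were chosen by their pattern in these RPKM values, in a contrast that is not stated, so their values are a description and no test is given for them in any comparison. Cells that line the vessels of the brain were sorted from adult C57BL/6 mice (12 to 20 weeks) as live CD45-CD31+PDGFRb- cells, a gate against leukocytes and pericytes. The stroke experiment has 4 groups of 4 libraries, all from mice with 1 h of middle cerebral artery occlusion followed by 1 d of reperfusion. WT-NS (non-stroke hemisphere) and WT-ST (stroke hemisphere) came from control mice of the genotype Gpr124 flox/+; ROSA-CreER+, and Cko-NS and Cko-ST from knockout mice of the genotype Gpr124 flox/-; ROSA-CreER+. Controls thus also carried a floxed allele and the inducible Cre recombinase, which is expressed from the ROSA locus and not limited to endothelium, and no group came from mice without stroke. In the second experiment, under normal conditions, 3 Bcat libraries (Ctnnb1 lox(ex3)/+; Cdh5-CreER+, in which endothelial Cre removes the exon that marks beta-catenin for breakdown) stood against 2 WT libraries (Ctnnb1 +/+; Cdh5-CreER+).

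FOXO factors are transcription factors held in check by insulin and growth-factor signalling. When phosphatidylinositol 3-kinase (PI3K) and the kinase AKT are active, AKT phosphorylates FOXO proteins, which leave the nucleus, so the activity of FOXO proteins is set largely by their location and less by the amount of their mRNA. When the signal is low they enter the nucleus and raise genes that slow the cell cycle, limit growth signalling and protect from oxidants. Foxo1 is the main FOXO factor of endothelium, where it is known to restrain growth and metabolism of resting vessels. Several of the genes below are shared with other regulators: Sesn1, Trp53inp1 and Ccng2 with the tumour suppressor p53, and Txnip with the glucose-sensing factors MondoA and ChREBP.

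Of the promoters of these genes, that of Txnip held matches to binding motifs of both kinds of regulator, and it is shown beside that of Pik3ip1, which held none. The 250 bases before the start were searched on both strands for GTAAACA and GTAAATA (forms of the FOXO site), CACGTG (the E-box), TGACGTCA (the CREB site) and the carbohydrate response element, the site of MondoA and ChREBP, here CACGNG repeated after any 5 bases, which may overlap an E-box. RefSeq promoters on GRCm38.p6 were found for 8 of the 9 genes, with 9 starts, and none for Trp53inp1. In the Txnip sequence (chr3:96557707-96557956, plus strand) the capitals mark GTAAACA, from 121 to 115 bases before the start, and the carbohydrate response element, from 85 to 69 bases before it. The Pik3ip1 sequence (chr11:3330481-3330730, plus strand) has no capitals because no motif matched. The starts are those of RefSeq and differ in part from the GENCODE gene positions given below. By GENCODE Pik3ip1 begins at 3330401, so its window lies within the gene. The windows of Ccng2, Sesn1 and Sesn3 also lie within their genes, whereas that of Txnip ends just before its gene, which begins at 96557957. The 2 sequences shown are thus not alike in position.
Txnip: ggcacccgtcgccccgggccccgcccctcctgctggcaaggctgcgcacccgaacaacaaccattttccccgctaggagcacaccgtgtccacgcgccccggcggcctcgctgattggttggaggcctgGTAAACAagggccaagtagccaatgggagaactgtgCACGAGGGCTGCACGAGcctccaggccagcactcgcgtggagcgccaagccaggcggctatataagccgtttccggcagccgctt
Pik3ip1: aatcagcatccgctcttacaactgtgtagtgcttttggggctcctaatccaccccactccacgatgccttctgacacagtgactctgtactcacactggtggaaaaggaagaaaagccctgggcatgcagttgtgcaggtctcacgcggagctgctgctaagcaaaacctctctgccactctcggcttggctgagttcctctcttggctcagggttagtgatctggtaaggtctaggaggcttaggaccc
Over all 32851 promoters of the same length, 3.17% held GTAAACA, 2.73% GTAAATA, 6.02% CACGTG, 1.55% TGACGTCA and 0.0457% (15 promoters) the carbohydrate response element. Irs2 held CACGTG, 44 bases before its start. The starts of Ccng2, Foxo1, Foxo3, Sesn1 and Sesn3 held no match, which says only that these letters are not in the window. Pik3ip1 also differed in base composition: it had 53.6% G and C and 5 CG pairs, whereas the other 8 starts had 56.0 to 76.4% and 16 to 34 CG pairs. The median of all promoters was 52.4% and 6 CG pairs.

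Depth was estimated from the steps of low RPKM values at 4.72 to 19.66 M reads in the stroke libraries, and less certainly at 6.62 to 15.06 M in the beta-catenin libraries. Gpr124, the targeted gene, ranged from 2.65 to 8.12 RPKM in controls, from 0.994 to 4.86 in Cko-NS and up to 1.72 in Cko-ST. In 2 libraries the sex transcripts went against the label: Cko-NS 4 (labelled female, Xist at 1.48 RPKM and a Y-linked sum of 189) and Cko-ST 3 (labelled male, Xist at 89.7 and a Y-linked sum of 0.423). Their same-numbered libraries of the other hemisphere were alike in these transcripts. Xist was at 0.7758 RPKM and the Y-linked sum at 248.9 in Cko-ST 4, and they were at 102.6 and 0.382 in Cko-NS 3. Sex transcripts thus matched between same-numbered knockout hemispheres, and whether the label or the library is wrong was not tested. Stroke effects in knockouts, and differences between genotypes that moved by over 1.5 times, are also given without both Cko-NS 4 and Cko-ST 3, as are the gene lists. All 10 endothelial markers were present, with summed RPKM of 1002 to 1187 in WT-NS, 1314 to 1437 in WT-ST, 1200 to 1436 in Cko-NS, 1437 to 1598 in Cko-ST and 1694 to 2261 in the beta-catenin libraries. Oligodendrocyte markers (6 of 6 in the table) summed to 186 to 1020 in WT-NS, 29.8 to 376 in WT-ST, 44.6 to 531 in Cko-NS and 20.9 to 277 in Cko-ST, and red cell and platelet markers (7 of 7) to 1057 to 26500 over the 16 libraries. Mural markers (8 of 8) summed to 45.3 to 67.0 in WT-NS, 11.3 to 48.6 in WT-ST, 23.3 to 32.5 in Cko-NS and 14.7 to 103 in Cko-ST. Blood leukocyte markers (6 of 7, with Cd3e and Ccr2 at 0 in all 4 groups) summed to 0 to 7.63, 2.06 to 42.6, 8.89 to 83.3 and 4.22 to 19.5 in the same order. Microglia and macrophage markers (7 of 7) summed to at most 79.3, and astrocyte, neuron and fibroblast markers to at most 14.7, 39.0 and 2.08. The part of these other cells in the results was not tested, and in bulk samples fewer cells of a type and less RNA per cell cannot be told apart.

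In the stroke hemisphere of knockouts Sesn1 fell and Sesn3 rose, and these were the 2 genes called among the 5 members that were taken by name and measured in the stroke libraries. Both calls were lost with no filter on low values and when any of several single libraries was left out, named below. In controls the same 2 genes had log2 fold changes of the same signs, but none of the 5 passed the threshold in the main fit of all 16 libraries. Sesn1 passed in controls with the replicate number as a block, among other alternatives given below. Genes were tested with limma on log2(RPKM + 1), for genes with a mean of at least 1 RPKM, and a gene is said to have risen or fallen where the Benjamini-Hochberg adjusted p over all genes was under 0.05. Foxo3 and Irs2 lay below that mean. Over all 9838 genes tested 13.3% were called in controls and 15.2% in knockouts (6.44% higher and 8.71% lower). The called share in controls was thus 0 of 5 against 13.3%, and 4 of the 5 had an unadjusted p under 0.05 in limma, against 27.1% of all genes. In knockouts 2 of 5 were called and 5 of 5 had an unadjusted p under 0.05, against 29.2% of all genes. The median log2 fold change of the 5 was -0.51 in controls and -0.61 in knockouts, and that of all genes 0.01 and -0.13. Scaling by median of ratios moved the knockout median of all genes from -0.13 to -0.01 and the calls from 634 higher and 857 lower to 868 and 599. Under it Sesn1 (-1.96) and Sesn3 (2.27) were still called. Both stroke comparisons come from a single fit of the 16 libraries but share no samples. No member was called in the interaction of stroke and genotype, nor was any of the 9838 genes (691 genes, 7.02%, had an unadjusted p under 0.05).

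**Figure D1:**
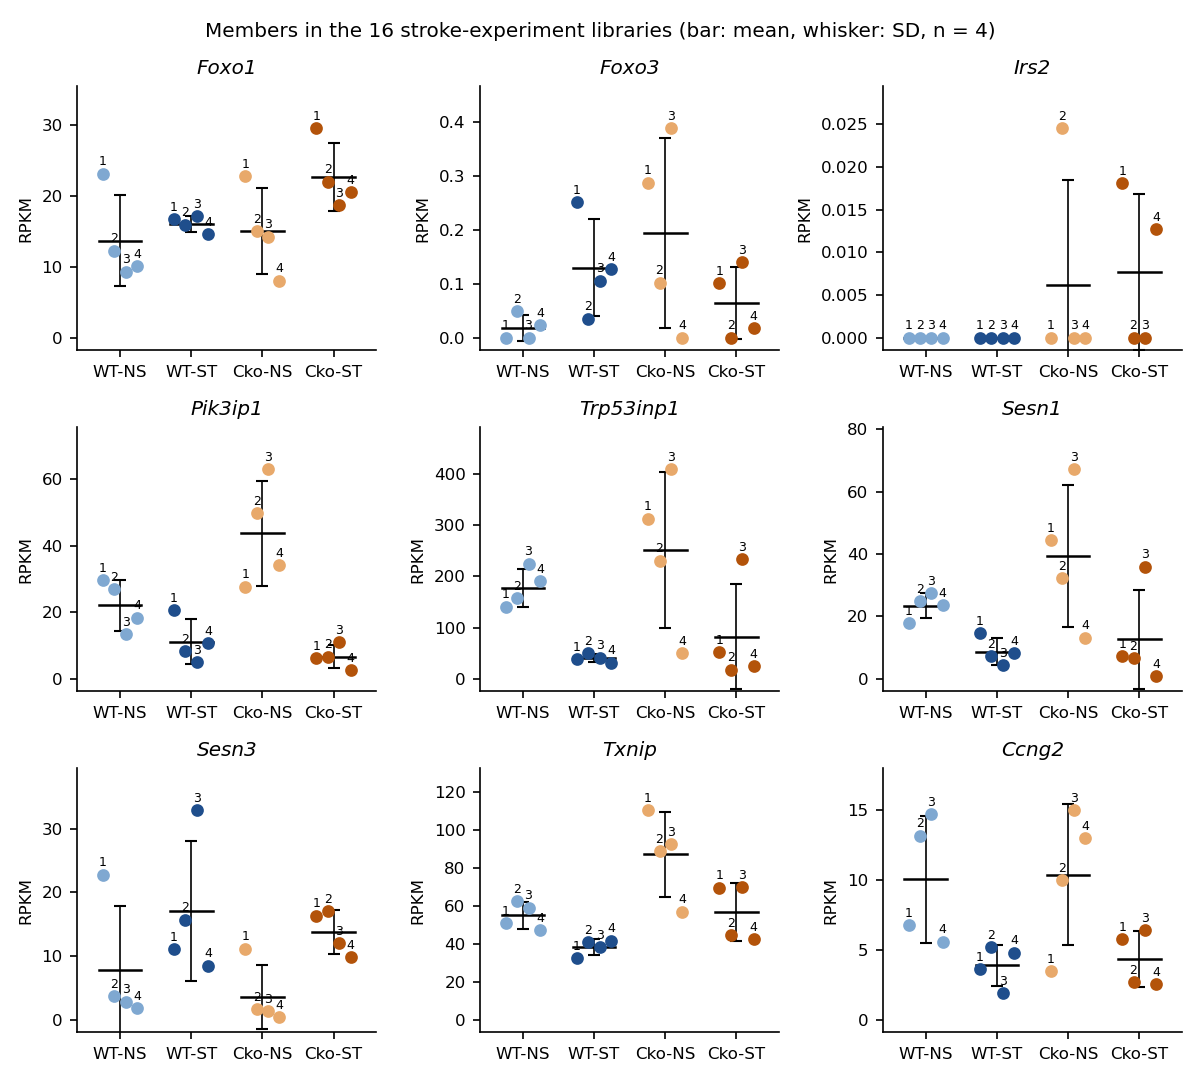
RPKM of the 9 genes in each of the 16 stroke-experiment libraries, by group (x axis), each panel with its own linear scale. Points are libraries with their number, bars are means and whiskers SD (n = 4), which may run below the axis. Pik3ip1 of Cko-ST lies below all of Cko-NS, and Trp53inp1 of Cko-NS 4 (50.3 RPKM) and Cko-ST 3 (234 RPKM) lies among the other hemisphere's libraries.

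Foxo1 (GRCm38 chromosome 3, 52268336 to 52353221, plus strand) was present in every library. It was at 23.1, 12.2, 9.31 and 10.0 RPKM in WT-NS 1 to 4 and at 16.7, 15.9, 17.1 and 14.6 in WT-ST 1 to 4. It was at 22.8, 15.1, 14.2 and 8.02 RPKM in Cko-NS and at 29.5, 22.0, 18.6 and 20.5 in Cko-ST. WT-ST libraries were close together (SD 1.12) and lay between WT-NS 1 and the other 3, and Cko-ST libraries lay above Cko-NS except for Cko-NS 1. Log2 fold changes of stroke were 0.30 ± 0.29 (SE) in controls (adjusted p = 0.558, limma) and 0.62 ± 0.29 in knockouts (adjusted p = 0.164), and the latter was 0.46 ± 0.30 without both libraries that went against their labels (adjusted p = 0.341). Between genotypes Foxo1 differed by 0.13 ± 0.29 without stroke (adjusted p = 0.880) and by 0.45 ± 0.29 with stroke (adjusted p = 0.994). In the stroke hemisphere each knockout library was above each control library, which held for 1.46% of all genes in this direction.

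Foxo3 (GRCm38 chromosome 10, 42181841 to 42276755, minus strand) and Irs2 (chromosome 8, 10984681 to 11008458, minus strand) were near 0 in the stroke libraries. Foxo3 ranged from 0 to 0.389 RPKM over the 16 libraries and was at 0 in 4 of them. With the depths above and a gene length of 2886 bases, estimated from the steps of its own values, all 16 values are whole numbers of reads (within 0.06), with 0 to 14 reads a library and 55 in all. That length was chosen to bring 10 of these values closest to whole numbers, so this is no separate check of it. The longest GENCODE transcript of Foxo3 has 6848 bases, and the length used by the authors is not given in the sources used here. Irs2, an adaptor that links the insulin receptor to PI3K and is itself a FOXO target, was at 0 in 13 of 16 libraries and at the value of 1 read in Cko-NS 2, Cko-ST 1 and Cko-ST 4. A count of 0 allows up to 3 reads, which is 0.0381 to 0.1586 RPKM for Irs2 and 0.0529 to 0.2202 for Foxo3, counting error only. Of the other FOXO factors, Foxo4 had means of 0.874 to 1.49 RPKM over the 4 groups and Foxo6 of 0 to 0.0235.

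Pik3ip1 (GRCm38 chromosome 11, 3330401 to 3342971, plus strand) encodes a membrane protein that inhibits PI3K, and so lies on the side of the pathway that favours FOXO activity. It was at 29.8, 26.9, 13.3 and 18.4 RPKM in WT-NS and at 20.6, 8.39, 5.10 and 10.7 in WT-ST. It was at 27.8, 49.9, 63.1 and 34.3 RPKM in Cko-NS and at 6.27, 6.68, 10.9 and 2.56 in Cko-ST. Controls overlapped through WT-ST 1, whereas all Cko-ST libraries were below all Cko-NS libraries, as were 11.4% of all genes tested. The means differed by 1.97-fold in controls (22.1 ± 7.57 and 11.2 ± 6.69, SD, n = 4) and by 6.62-fold in knockouts (43.8 ± 15.9 and 6.61 ± 3.42), lower in the stroke hemisphere. On the log2(RPKM + 1) scale these were -1.01 ± 0.40 and -2.61 ± 0.40, and their difference was -1.60 ± 0.57. Nothing is read from these differences, since the gene was chosen for its pattern. Without both libraries that went against their labels the knockout value was -2.96 ± 0.45.

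Trp53inp1 (GRCm38 chromosome 4, 11156431 to 11174379, plus strand) encodes a p53-induced protein of autophagy and cell death. It was at 141, 157, 225 and 191 RPKM in WT-NS and at 38.3, 50.4, 41.1 and 31.5 in WT-ST. It was at 313, 231, 410 and 50.3 RPKM in Cko-NS and at 51.6, 18.1, 234 and 24.2 in Cko-ST. Control hemispheres were apart, lower with stroke, as were 8.7% of all genes tested. Their means were 178 ± 37.2 and 40.3 ± 7.82 RPKM, a 4.42-fold difference. Knockout hemispheres overlapped in both directions, since Cko-NS 4 lay among the stroke libraries and Cko-ST 3 among the non-stroke libraries, the same 2 libraries whose sex transcripts went against the label. The log2 fold change was -2.11 ± 0.63 in controls and -2.01 ± 0.63 in knockouts, and the latter was -3.41 ± 0.32 without both libraries. It was -2.76 without Cko-ST 3 alone. Their difference moved from 0.11 ± 0.89 to -1.29 ± 0.42 without both.

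Sesn1 (GRCm38 chromosome 10, 41809935 to 41908424, plus strand) and Sesn3 (chromosome 9, 14275067 to 14333101, plus strand) encode sestrins, stress-induced proteins that restrain the growth kinase complex mTORC1. Sesn3 is a known FOXO target, and Sesn1 a target of both p53 and FOXO. Their directions were opposite. Sesn1 was at 17.9, 24.9, 27.5 and 23.5 RPKM in WT-NS and at 14.6, 7.33, 4.46 and 8.18 in WT-ST. It was at 44.5, 32.2, 67.3 and 13.2 RPKM in Cko-NS and at 7.24, 6.56, 35.9 and 0.845 in Cko-ST. Control hemispheres did not overlap, lower with stroke, which 8.7% of all genes did, and knockouts overlapped through Cko-ST 3 alone, with Cko-NS 4 the lowest of its group. The log2 fold change was -1.43 ± 0.64 in controls (adjusted p = 0.153, limma), and in knockouts Sesn1 fell by 2.11 ± 0.64 (adjusted p = 0.0316). Without both libraries that went against their labels it was -1.43 ± 0.43 (adjusted p = 0.0343) and -3.27 ± 0.49 (adjusted p = 3.46e-04). In controls it passed with only the compared groups in the fit (adjusted p = 0.00996) and with the replicate number as a block (adjusted p = 0.0196). The knockout call was lost with only those groups (adjusted p = 0.101), with no filter on low values (adjusted p = 0.0930), and without Cko-NS 1, 2 or 3 or Cko-ST 1, 2 or 4 (adjusted p from 0.0569 to 0.101).

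Sesn3 was at 22.8, 3.73, 2.84 and 1.83 RPKM in WT-NS and at 11.1, 15.7, 32.9 and 8.50 in WT-ST. It was at 11.1, 1.63, 1.32 and 0.435 RPKM in Cko-NS and at 16.4, 17.1, 12.1 and 9.87 in Cko-ST. Apart from WT-NS 1 and Cko-NS 1, every non-stroke library was below every stroke library. The oligodendrocyte sum was also highest in these libraries within their groups (1020 in WT-NS 1 and 531 in Cko-NS 1), and so was Foxo1. Their part in the result was not tested. The log2 fold change was 1.43 ± 0.64 in controls (adjusted p = 0.153, limma), and 2.10 ± 0.56 without WT-NS 1 (adjusted p = 0.0228). In knockouts Sesn3 rose by 2.18 ± 0.64 (adjusted p = 0.0271). That call was lost without both libraries that went against their labels (1.84 ± 0.73, adjusted p = 0.109) and without Cko-NS 2, 3 or 4 or Cko-ST 1 or 2 (adjusted p from 0.0611 to 0.0831). It was also lost with a pseudocount of 5 (1.26 ± 0.42, adjusted p = 0.0528) and with no filter on low values (adjusted p = 0.0805).

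**Figure D2:**
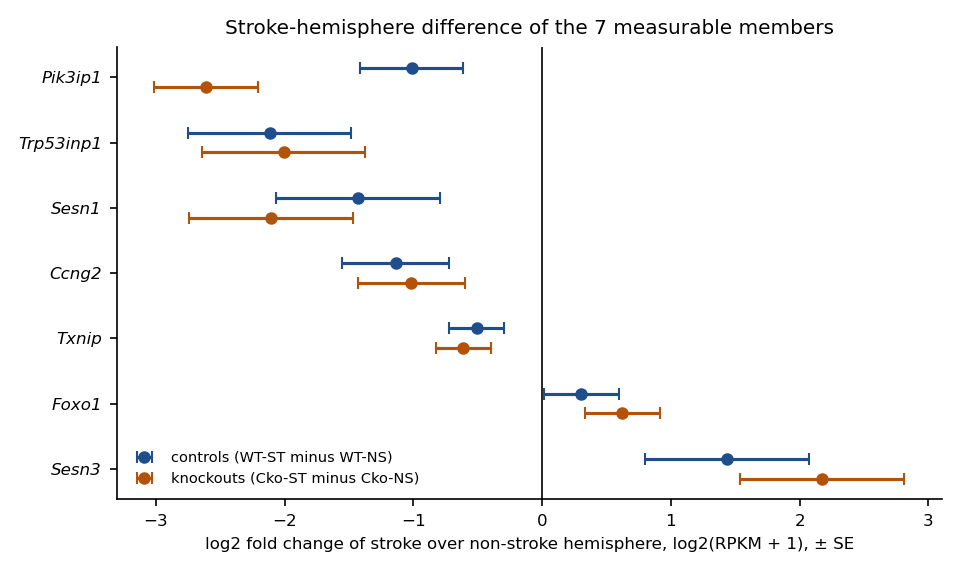
Log2 fold change of the stroke over the non-stroke hemisphere (x axis, log2(RPKM + 1) scale, with SE of the fit) for the 7 genes with a mean of at least 1 RPKM, in controls and in knockouts (n = 4 a group). Points left of 0 are lower in the stroke hemisphere; Pik3ip1 is at -1.01 and -2.61 and Sesn3 at 1.43 and 2.18.

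Txnip (GRCm38 chromosome 3, 96557957 to 96561883, plus strand) encodes the thioredoxin-interacting protein, which binds thioredoxin and limits glucose uptake. It was at 51.1, 62.7, 59.2 and 47.2 RPKM in WT-NS and at 32.5, 40.9, 38.2 and 41.7 in WT-ST. It was at 111, 88.9, 92.7 and 57.1 RPKM in Cko-NS and at 69.7, 44.7, 70.1 and 42.7 in Cko-ST. All WT-ST libraries were below all WT-NS libraries, which held for 8.7% of all genes, and Cko-NS 4 lay within the range of Cko-ST. The log2 fold change was -0.51 ± 0.22 in controls (adjusted p = 0.132, limma) and -0.61 ± 0.22 in knockouts (adjusted p = 0.0641). Without both libraries that went against their labels the knockout value was -0.91 ± 0.21 (adjusted p = 0.0074). It also passed without Cko-NS 4 alone (-0.80, adjusted p = 0.0135) and without Cko-ST 3 alone (-0.72, adjusted p = 0.0413). With the replicate number as a block, which pairs the knockout hemispheres, it was -0.61 ± 0.17 (adjusted p = 0.0264). Txnip was higher in knockouts by 0.63 ± 0.22 without stroke (adjusted p = 0.193) and by 0.52 ± 0.22 with stroke (adjusted p = 0.994). With stroke the genotypes did not overlap, which held for 1.46% of all genes in this direction.

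Ccng2 (GRCm38 chromosome 5, 93267257 to 93276231, plus strand) encodes cyclin G2, an atypical cyclin that is high in resting cells. It was at 6.75, 13.1, 14.7 and 5.59 RPKM in WT-NS and at 3.62, 5.19, 1.93 and 4.79 in WT-ST. It was at 3.49, 9.98, 15.0 and 13.0 RPKM in Cko-NS and at 5.74, 2.70, 6.39 and 2.57 in Cko-ST. Control hemispheres did not overlap, lower with stroke, which held for 8.7% of all genes, and knockouts overlapped only through Cko-NS 1. The log2 fold change was -1.14 ± 0.42 in controls (adjusted p = 0.0799, limma) and -1.02 ± 0.42 in knockouts (adjusted p = 0.109), and the latter was -1.41 ± 0.38 without Cko-NS 1 (adjusted p = 0.0217) and -1.05 ± 0.48 without both libraries that went against their labels (adjusted p = 0.165).

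No member was called between genotypes. Without stroke 0.315% of all genes were called, and Foxo1, Sesn1, Sesn3, Txnip and Ccng2 had adjusted p from 0.193 to 0.995 in limma. With stroke 0 of 9838 genes were called (476 genes, 4.84%, had an unadjusted p under 0.05), and the 5 had adjusted p from 0.994 to 0.998. Sesn1 differed by 0.52 ± 0.64 without stroke and -0.16 ± 0.64 with stroke, and Sesn3 by -0.88 ± 0.64 and -0.14 ± 0.64. Pik3ip1 was 1.98-fold higher in Cko-NS than in WT-NS (log2 0.95 ± 0.40), with each Cko-NS library above the WT-NS median, and 1.69-fold lower in Cko-ST than in WT-ST (-0.65 ± 0.40). Trp53inp1 differed by 0.17 ± 0.63 without stroke and 0.27 ± 0.63 with stroke. Without Cko-NS 4 and Cko-ST 3 these were 0.81 ± 0.30 and -0.48 ± 0.30, so the latter turned sign. Likewise Sesn1 was then 0.96 ± 0.46 without stroke (adjusted p = 0.383, limma) and -0.89 ± 0.46 with stroke (adjusted p = 0.842). Without the 2 libraries Foxo1 was 0.38 ± 0.28 (adjusted p = 0.590) and Sesn3 -0.49 ± 0.68 (adjusted p = 0.804) without stroke, Ccng2 was -0.16 ± 0.45 and -0.07 ± 0.45, and Sesn3 with stroke was -0.09 ± 0.68. Pik3ip1 with stroke was not moved by over 1.5 times (-0.91 ± 0.42).

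Within groups some of the genes varied together. Pearson's r of deviations of log2(RPKM + 1) from group means over 16 libraries ranged from -0.58 to 0.87 over the pairs of measured members. It was 0.87 for Foxo1 and Sesn3, 0.81 for Sesn1 and Trp53inp1 and 0.79 for Txnip and Trp53inp1. For Foxo1 and Sesn3, r of log2(RPKM + 1) was 0.83 over the 8 non-stroke libraries but 0.18 over the 8 stroke libraries. In knockouts Trp53inp1 and Sesn1 were both highest in Cko-NS 3 and in Cko-ST 3 and both lowest in Cko-NS 4. Txnip was lowest in Cko-NS 4 too. In the same libraries Sesn3 and Pik3ip1 kept to their hemisphere: Cko-NS 4 had 0.435 and 34.3 RPKM, and Cko-ST 3 had 12.1 and 10.9. The red cell sum was highest in Cko-NS 3 (26500) and Cko-ST 3 (12790) and was 9616 in Cko-NS 4, against 3949 and 8814 in the other Cko-NS libraries. Its part in the pattern was not tested. In the non-stroke hemisphere Foxo1 and Sesn3 were both highest in the libraries numbered 1 of each genotype.

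**Figure D3:**
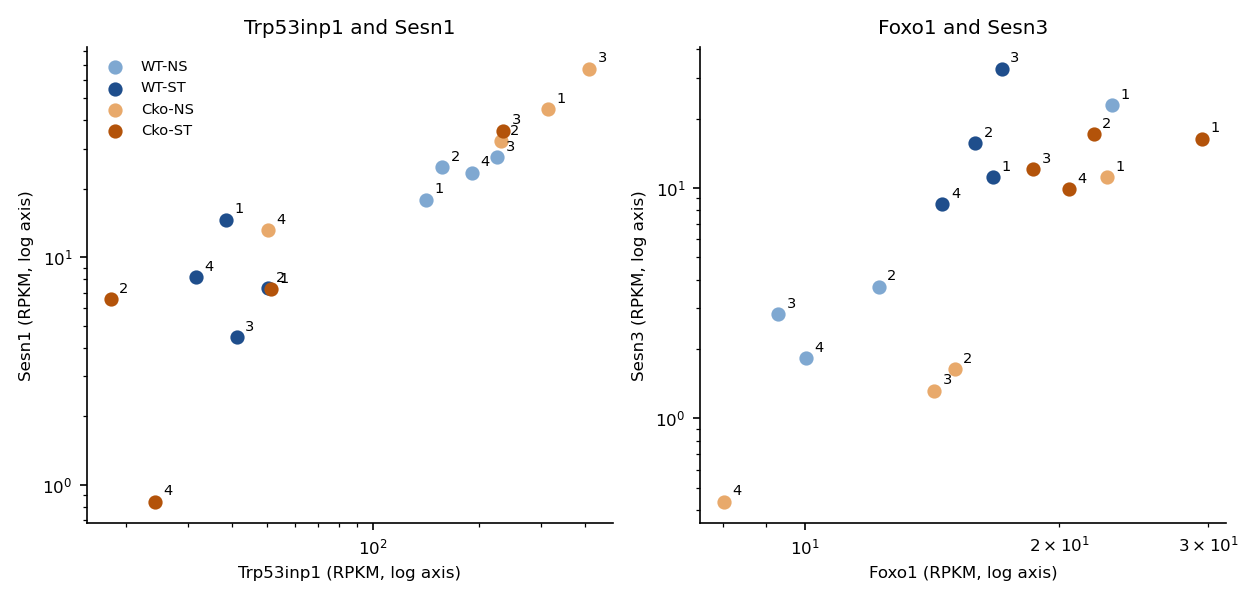
Trp53inp1 against Sesn1 (left) and Foxo1 against Sesn3 (right), RPKM on log axes, 1 point for each of the 16 libraries with its number, coloured by group in both panels. Cko-NS 4 (50.3 and 13.2 RPKM) stands with the stroke libraries and Cko-ST 3 (234 and 35.9) with the non-stroke libraries on the left.

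Likeness was measured as Pearson's r of log2(RPKM + 1) over the 16 libraries, among 5578 genes with a mean of at least 5 RPKM. The libraries share hemisphere and genotype, and r within the 8 non-stroke and the 8 stroke libraries is given beside it. Sesn1 and Trp53inp1 had the same nearest gene, Fmo2, a flavin monooxygenase, with r of 0.954 (0.852 and 0.930) and 0.949 (0.883 and 0.923). Pik3ip1 was nearest to Wfdc1 at 0.931 (0.740 and 0.838) and Cyp2d22 at 0.927 (0.816 and 0.823), and Cyp2d22 was also the second gene for Sesn1 at 0.945 (0.760 and 0.954). Txnip was nearest to Serinc3 at 0.917 (0.869 and 0.875). Sesn3 was nearest to Ptp4a1, a phosphatase, at 0.897 (0.890 and 0.771), and Ccng2 to Crispld1 at 0.890 (0.935 and 0.573).

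Genes that feed signals into PI3K and AKT were followed as a list of 26, of which 21 were tested in the stroke libraries. In controls 1 rose and 2 fell (14.3%, against 13.3% of all genes), and in knockouts 1 rose and 4 fell (23.8%, against 15.2%). The list's median log2 fold change was -0.22 and -0.19, beside 0.01 and -0.13 for all genes. Igf1r, the receptor of insulin-like growth factors, fell from 347 ± 24.9 to 106 ± 26.8 RPKM in controls (log2 -1.73 ± 0.26, adjusted p = 1.85e-04, limma). In knockouts it fell from 279 ± 40.1 to 75.0 ± 31.0 (-1.97 ± 0.26). Insr, the insulin receptor, fell by 0.78 ± 0.25 in controls (adjusted p = 0.0480) and by 1.23 ± 0.25 in knockouts (adjusted p = 0.00295). The gene that rose in controls was Akt1 (1.03 to 4.73 RPKM), and in knockouts it was Sgk1, a kinase that phosphorylates FOXO proteins like AKT (241 to 515 RPKM). Sgk1 had means of 209 and 362 RPKM in the control hemispheres. It was called in controls too in the fit without both libraries that went against their labels. Its interaction of stroke and genotype was not called (0.38 ± 0.38, adjusted p = 0.871, limma). Ddit4, an inhibitor of mTORC1, fell in knockouts (-1.05 ± 0.26). Of 11 other FOXO family members, related factors and cofactors tested, which do not include the members, 3 rose and 1 fell in controls (36.4%) and 2 rose in knockouts (18.2%). Foxo4, the only FOXO gene tested among them, was not called. In controls Foxk2, a factor of the FOXK family, rose (1.08 ± 0.20) and Crebbp, a cofactor, fell (-0.97 ± 0.29). Ywhaz and Ywhag, 14-3-3 proteins of the kind that hold FOXO in the cytoplasm, rose in both (Ywhaz by 0.57 ± 0.12 and 0.67 ± 0.12).

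A list of 20 cell-cycle genes under FOXO control holds genes that slow growth and also Myc and Ccnd1, which drive it and which FOXO factors hold down. Of the 20, 6 rose and 2 fell in controls (40%), and 5 rose and 2 fell in knockouts (35%), with medians of 0.35 and 0.05. Myc and Ccnd1 were among those that rose in both, beside Btg1, Gadd45a and Klf6, which restrain growth, and those that fell were Cdkn1b and Mxi1. Cdkn1b, the cell-cycle inhibitor p27, fell from 151 ± 12.2 to 70.6 ± 7.91 RPKM in controls (-1.09 ± 0.17, adjusted p = 3.37e-04, limma) and from 162 ± 39.0 to 68.1 ± 7.31 in knockouts (-1.22 ± 0.17). Mxi1, which opposes Myc, fell by 1.54 ± 0.27 in controls. Myc rose from 0.266 to 6.03 RPKM in controls (2.49 ± 0.30) and from 0.276 to 8.26 in knockouts (2.79 ± 0.30). Btg1 rose by 1.09 ± 0.22 and 1.27 ± 0.22. Of 17 targets of metabolism, autophagy and stress, 1 fell in controls (Ulk2, -1.02 ± 0.26; 5.88%), and 1 rose and 4 fell in knockouts (29.4%), with medians of -0.43 and -0.60. Among the latter Tnfsf10, the death ligand TRAIL, fell from 87.9 ± 44.1 to 22.5 ± 11.0 RPKM (-1.95 ± 0.34) and Cat, catalase, fell by 0.67 ± 0.19, a call lost without both libraries that went against their labels. Of 12 endothelial targets, 4 rose and 1 fell in controls (41.7%) and 3 rose and 1 fell in knockouts (33.3%), and Angpt2, a classical endothelial FOXO1 target, rose by 2.82 ± 0.35 and 1.90 ± 0.35. Nos3, endothelial nitric oxide synthase, was the only gene of these 9 pathway lists called between genotypes in the main fit. It was higher in Cko-NS (28.4 ± 6.93 RPKM) than in WT-NS (10.4 ± 3.67; 1.40 ± 0.29, adjusted p = 0.0460). That call was lost without both libraries that went against their labels (1.39, adjusted p = 0.0753), with only the compared groups (adjusted p = 0.108), without WT-NS 1 (0.111) or WT-NS 4 (0.147) and when any single Cko-NS library was left out (0.0554 to 0.128).

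**Figure D4:**
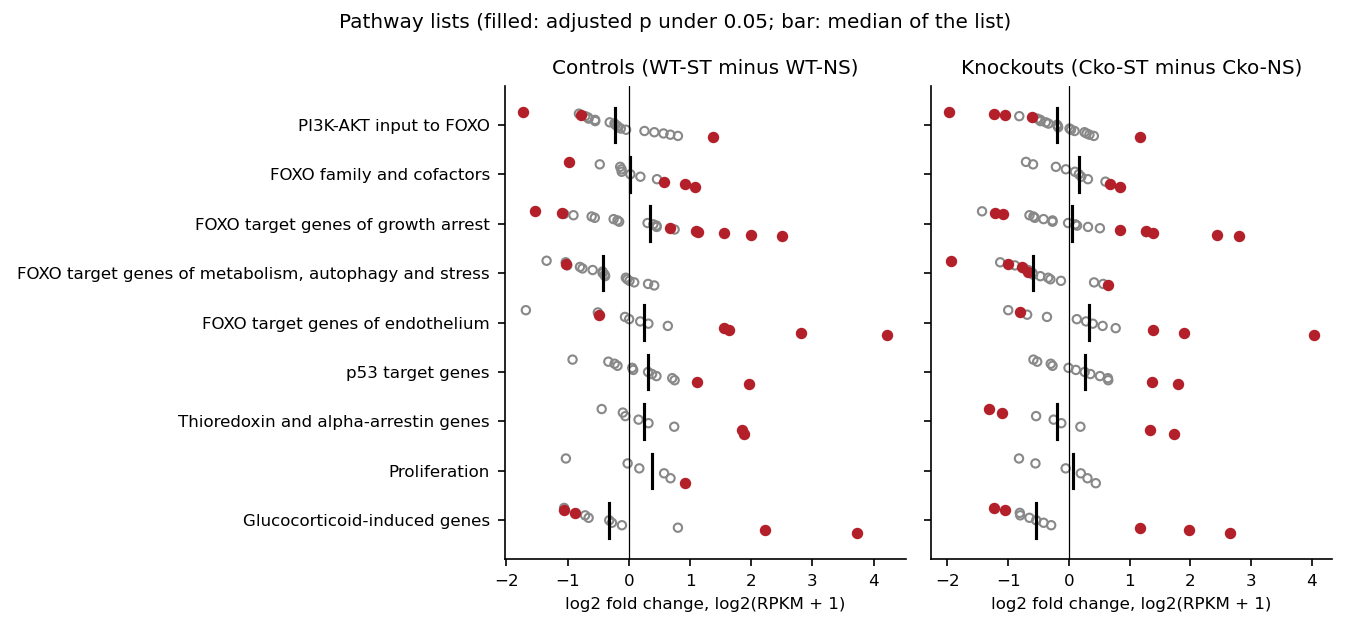
Log2 fold change of stroke (x axis, log2(RPKM + 1) scale) for each tested gene of the 9 pathway lists, in controls (left) and knockouts (right). Filled points had an adjusted p under 0.05, open points did not, and the bar is the list's median; the growth-arrest list, which also holds Myc and Ccnd1, has 6 called genes above 0 and 2 below in controls.

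Lists for the other regulators of these genes were counted too, and some genes stand in 2 lists (Sgk1 and Ddit4 under PI3K-AKT and glucocorticoid, Cdkn1a, Ccng1 and Btg2 under growth arrest and p53). Of 13 p53 targets tested, which do not include the members, 2 rose and 0 fell in each genotype (15.4%, against 13.3 and 15.2% of all genes). Tnfrsf10b, a death receptor, rose in both (1.97 ± 0.31 and 1.79 ± 0.31) and Bax rose in controls (1.11 ± 0.24). Of 8 genes tested in a list of thioredoxins, alpha-arrestins and regulators of Txnip, 2 rose in controls (25%), and 2 rose and 2 fell in knockouts (50%). Mlxip and Mlxipl, which encode MondoA and ChREBP, stand in this list but were too low to be tested. Their means were at most 0.05522 and 0.01855 RPKM in the stroke groups. Txn1, the thioredoxin that Txnip binds, rose from 83.5 ± 21.6 to 301 ± 30.3 RPKM in controls (1.87 ± 0.22, adjusted p = 2.10e-05, limma) and by 1.33 ± 0.22 in knockouts. Arrdc1 and Arrdc2, alpha-arrestins related to Txnip, fell in knockouts (-1.10 ± 0.33 and -1.32 ± 0.41). Of 11 glucocorticoid-induced genes 2 rose and 2 fell in controls (36.4%) and 3 rose and 2 fell in knockouts (45.5%). Mt2 and Errfi1 rose in both genotypes (3.72 ± 0.56 and 2.22 ± 0.41 in controls). Tsc22d3 fell in both, from 566 ± 63.9 to 272 ± 29.8 RPKM in controls (-1.06 ± 0.19). Of 18 proliferation genes 6 were tested, and 1 rose in controls (Pcna, 0.91 ± 0.24; 16.7%) and 0 in knockouts (Pcna 0.44 ± 0.24, adjusted p = 0.232). Without both libraries that went against their labels, 14.7% of all genes were called in knockouts. The knockout counts were then 1 higher and 4 lower of 21 for PI3K-AKT input (23.8%) and 3 and 1 of 12 for family and cofactors (33.3%). For cell-cycle genes they were 7 and 2 of 20 (45%). For metabolism, autophagy and stress they were 1 and 4 of 17 (29.4%), and for endothelial targets 2 and 1 of 11 (27.3%). The counts were 2 and 0 of 13 for p53 targets (15.4%) and 2 and 1 of 8 for thioredoxins and arrestins (37.5%). They were 3 and 2 of 11 for glucocorticoid-induced genes (45.5%) and 0 of 6 for proliferation. In knockouts Cat, Sod2, Map1lc3b, Spry4, Eda2r and Arrdc2 were then no longer called. Cited2, Bcl2l11, Klf15, Klf4, Gadd45b, Ywhab, Ep300 and Bax were called there only in this fit and not in the main fit. In controls the same fit gave 4 lower of 17 for metabolism, autophagy and stress (23.5%, against 14.8% of all genes).

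In the beta-catenin experiment none of the 6 members tested was called, nor was any of the 11252 genes (590 genes, 5.24%, had an unadjusted p under 0.05 in limma). Sesn3 was at 12.5, 10.6 and 12.0 RPKM in Bcat 1 to 3 and at 2.70 and 2.58 in WT 1 and 2. The groups were apart, with means of 11.7 ± 0.993 and 2.64 ± 0.0876 RPKM, a 4.42-fold difference (log2 1.80 ± 0.44, unadjusted p = 0.00274, adjusted p = 0.708, limma). Each Bcat library was above each WT library also for Foxo3, and this held for 8.66% of all genes in this direction. Foxo3 was at 24.0, 21.4 and 29.6 RPKM in Bcat and at 21.0 and 16.9 in WT (0.38 ± 0.31, adjusted p = 0.969). These levels stand beside 0 to 0.389 RPKM in the stroke libraries, which were amplified from the 3' end of polyadenylated RNA, whereas the others were made from total RNA. Kit, condition and genotype differ between the experiments, and which of them goes with this gap cannot be told apart. Sex transcripts differed too. Xist was at 0 to 0.0456 RPKM in the beta-catenin libraries, and at 89.7 to 177 in the stroke libraries other than Cko-NS 4 and Cko-ST 4. Foxo3 was at 0 in Cko-NS 4 and 0.0176 in Cko-ST 4, and the part of sex was not tested.

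The other members overlapped between Bcat and WT. Foxo1 was at 55.7, 44.5 and 34.8 RPKM in Bcat and at 34.7 and 58.6 in WT. Pik3ip1 was at 37.9, 40.0 and 46.9 in Bcat and at 48.8 and 40.6 in WT, and Sesn1 at 41.3, 26.9 and 36.2 against 58.8 and 27.0. Txnip was at 92.4, 52.5 and 208 RPKM in Bcat and at 173 and 84.1 in WT, and Trp53inp1 at 37.5, 26.1 and 63.1 against 41.2 and 18.8. Both were highest in Bcat 3 and next highest in WT 1. The red cell sum was 30170 in Bcat 3, from 15490 to 24450 in the other Bcat libraries and from 13320 to 14110 in WT, and its part in these values was not tested. Ccng2 was at 11.2, 4.40 and 4.37 RPKM in Bcat and at 3.96 and 10.6 in WT, and Irs2 was at 0 except for 1.08 in Bcat 3. Log2 fold changes of the tested genes among these were -0.03 ± 0.32 for Foxo1, -0.21 ± 0.37 for Sesn1, -0.26 ± 0.52 for Txnip and -0.10 ± 0.60 for Ccng2. Pik3ip1 (-0.10 ± 0.26) and Trp53inp1 (0.49 ± 0.44) are given as description.

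**Figure D5:**
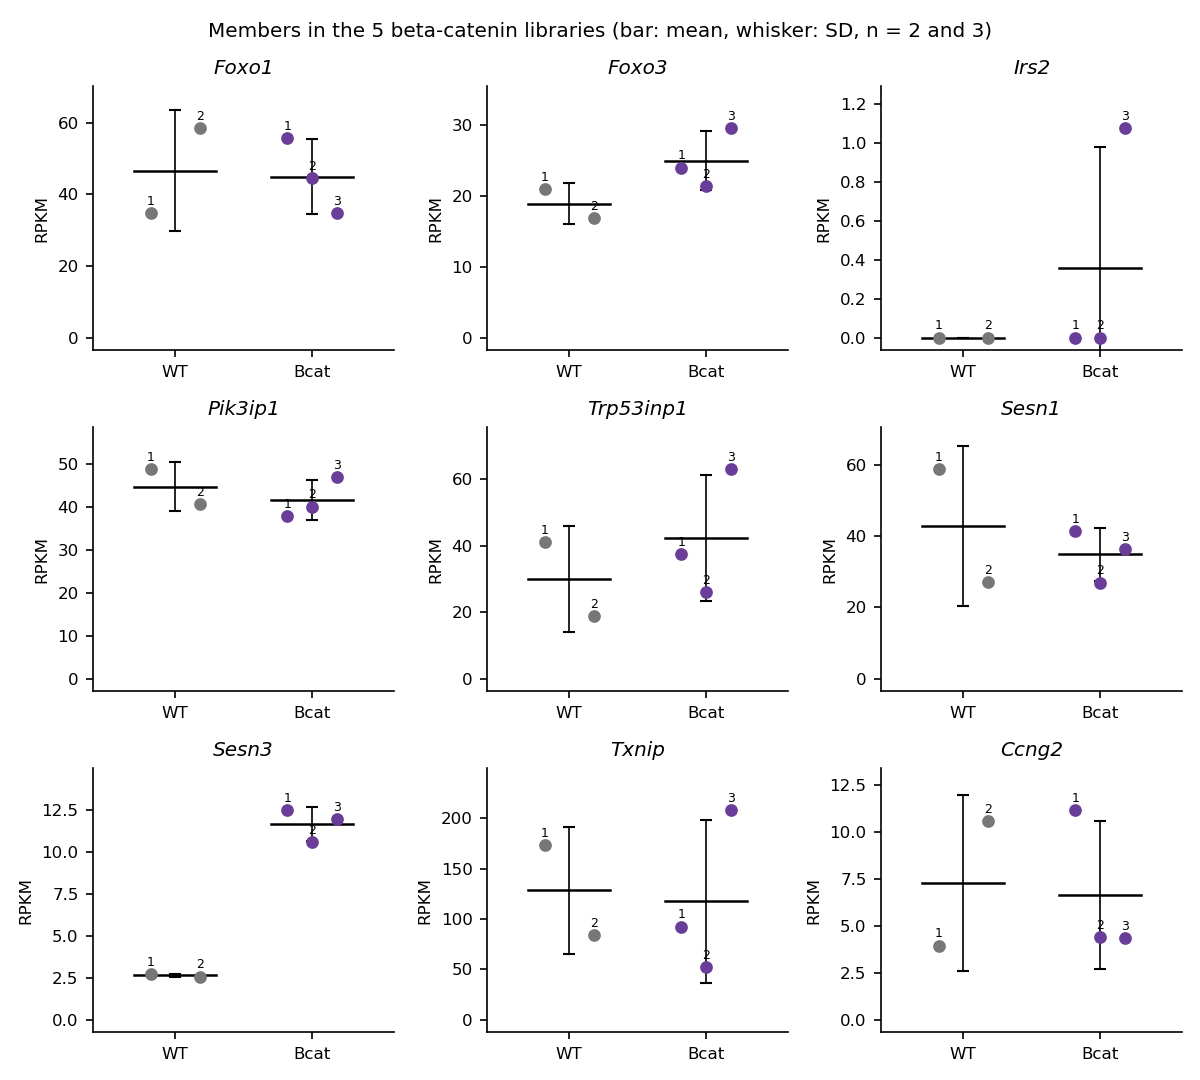
RPKM of the 9 genes in the 5 beta-catenin libraries, WT (n = 2) and Bcat (n = 3) on the x axis, each panel with its own linear scale. Points are libraries with their number, bars are means and whiskers SD, which may run below the axis; Sesn3 is at 10.6 to 12.5 RPKM in Bcat and 2.58 to 2.70 in WT.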

How the data were processed

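RNA was sequenced from 21 samples. The authors deposited RPKM values per gene and library. Their tools include edgeR and their build is mm10, per the submitters' processing notes, and no aligner, annotation or gene length is given in the sources used here. Per the labels' protocols, stroke libraries were amplified from the 3' end of polyadenylated RNA, and the other 5 from total RNA with other kits, so each experiment was fitted alone. Of 24260 rows, 54 that shared 23 names were left out, as were 8 columns of no sample described. Values were transformed to log2(RPKM + 1), which understates changes of low genes, and tested with limma 3.58.1 (R 4.3.3): two-sided moderated tests (trend), mean RPKM of at least 1, Xist and Y-linked genes left out, Benjamini-Hochberg adjustment over all genes, threshold 0.05. The stroke fit had 4 group means (9838 genes), the other 2 (11252 genes). The script was tested on simulated data. Depth was the number of reads that made the largest share of low RPKM values of 4698 short GENCODE genes whole numbers of reads within 0.02 (32.7 to 39.3% of values in stroke libraries, 13.7 to 18.8% in the others, and at most 3.0% and 3.6% at a typical trial depth). Whether libraries of a group are separate animals is not labelled, and p-values cover only the spread among the libraries, which may be technical.

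The genes and lists were chosen with earlier results of these data known. From each pathway list up to 4 called genes with the lowest p are named per comparison, or up to 2 with the highest mean where none was called, and the text leaves some out. Deviations of same-numbered knockout hemispheres from their group means correlated across genes at 0.1005 to 0.2135, over 0.1 in 4 of 4 pairs. By this mark the numbers were taken to pair the knockout hemispheres. This comes from the data, and the labels do not say it. In controls 1 of 4 pairs passed, and the pair numbered 1 missed the mark at 0.0986. The mark thus does not settle whether control hemispheres are paired. Alternatives were other pseudocounts (0.1 and 5), filters (none and 5 RPKM), scalings, no trend, the replicate number as a block, only the compared groups, and leaving out libraries. The likeness of Foxo1 to other genes is not reported here.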

Additional observations from a re-analysis of the deposited data

Results flagged for a closer look

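In 3 of 28 groups of 4 libraries examined (7 genes in 4 groups), a library stood apart, its gap to the nearest other library over the group's range passing Dixon's 95% critical value. Chance gives about 1 in 20 groups. Sesn3 was 22.79 RPKM in WT-NS 1 (ratio 0.909) and 11.14 RPKM in Cko-NS 1 (ratio 0.888). Trp53inp1 was 234 RPKM in Cko-ST 3 (ratio 0.845), a library whose sex transcripts go against its label.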

How the results depend on the processing

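Over 783 values of members under alternatives, 719 were counted as the same, 16 lost the call, 10 gained it, 37 reversed and 1 moved. The cause was not tested. For the tested genes, the same means that direction and side of the threshold were kept. Pik3ip1 and Trp53inp1 have no call. Theirs counted as the same where the log2 fold change shifted by less than the SD within groups, and as moved otherwise. A change of sign in Pik3ip1 or Trp53inp1 is thus not counted as reversed. The count of members called in controls, 0, was 1 with the replicate block, with only the compared groups and without both libraries that went against their labels (Sesn1 each time), and 0 to 1 without single libraries. In knockouts the count of 2 was 1 with a pseudocount of 5, 0 with no filter, 1 with only the compared groups, and 0 to 3 without single libraries. Counts of 0 in the other 4 comparisons were 0 under every alternative run. Sesn1 in controls under the replicate block was -1.43 ± 0.36 (adjusted p = 0.0196, limma), and Txnip in knockouts -0.61 ± 0.17 (adjusted p = 0.0264). The block also moved the calls without stroke between genotypes from 22 higher and 9 lower to 43 and 17, while only the compared groups gave 1 and 1 and single libraries left out gave from 1 and 0 (without WT-NS 4) to 32 and 9. Between genotypes this block joins same-numbered libraries of controls and knockouts. Over both hemispheres 0 of 8 such pairs correlated over 0.1 (-0.0166 to 0.0994), so the numbers were not taken to pair the genotypes. In controls same-numbered hemispheres had deviations correlated at 0.0117 to 0.130 across genes, with 1 of 4 pairs over 0.1. There 3 of 4 non-stroke libraries correlated best with their own number, so whether the control samples are paired is not settled. In knockouts, where the numbers were taken to pair the samples, the block changed no call other than that of Txnip. Leaving a WT library out of the second experiment leaves 1, assumed to vary like the Bcat libraries.

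All counted reversals were of log2 fold changes that were not called. Without stroke, Foxo1 between genotypes was -1.703e-04 with quantile normalization and Ccng2 0.0101 with a pseudocount of 5. With stroke, Sesn1 was 0.0413 with a pseudocount of 5 and Ccng2 -0.0719 without both libraries against their labels. The interaction of Txnip was 0.0710 with median-of-ratios scaling. Under beta-catenin, Foxo1 was 0.0393 with that scaling and 0.14 with the replicate block, and Ccng2 0.10 with the block. Without single libraries, values without stroke ranged from -0.0840 to 0.40 for Foxo1 and -0.23 to 0.39 for Ccng2. With stroke they ranged from -0.89 to 0.55 for Sesn1, -0.39 to 0.22 for Sesn3 and -0.12 to 0.28 for Ccng2. The interaction ranged from -1.41 to 0.0299 for Sesn1, -0.29 to 0.0233 for Txnip and -0.28 to 0.34 for Ccng2. Under beta-catenin the ranges were -0.40 to 0.34 for Foxo1, -0.76 to 0.33 for Sesn1, -0.78 to 0.25 for Txnip and -0.72 to 0.51 for Ccng2.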

Other observations

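The summed RPKM of 6 oligodendrocyte markers was ordered alike over the libraries' numbers in 3 of 4 stroke groups (1, 4, 3, 2 from highest to lowest). These were WT-NS, WT-ST and Cko-NS; in Cko-ST the library numbered 4 had the highest sum. The library numbered 2 had the lowest in all 4 groups. The sums were 186, 29.8, 44.6 and 20.9 RPKM in the libraries numbered 2. In the libraries numbered 1 they were 1020, 376, 531 and 140 RPKM. The labels do not say what the number stands for.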
